A study of Mus musculus with 6 samples.

Results

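Purine salvage and polyamine metabolism were followed through 10 genes in cultured mouse dermal fibroblasts in which β-catenin was stabilised. The genes, out of 41126 in the deposited all-gene table, are the purine salvage genes Hprt, Aprt, Pnp, Ada and Mtap and the polyamine genes Odc1, Amd1, Srm, Sms and Sat1. They were selected on measured values, with the contrast of these same libraries in view, so their levels and fold changes are given as a description, without a test. RNA-seq was done on 6 libraries, 3 of each group, from ventral skin fibroblasts of 4 pups on a mixed CD1, C57Bl6 background, taken at postnatal day 4 and grown in DMEM with 10% fetal bovine serum. Controls are labelled AdGFP; +/+ and received an adenovirus carrying GFP. GOF cultures (gain of function) are labelled AdCre; Ctnnb1{delta}ex3/+ and received an adenovirus carrying Cre, which removes exon 3 of 1 copy of Ctnnb1 and leaves a β-catenin that escapes degradation. One animal gave Control 0 and GOF 2, another gave Control 2 and GOF 0, and Control 1 and GOF 1 came from 1 animal each. By the study's methods the controls came from mice with the same floxed allele, although their label reads +/+. The label on treatment names the Cre virus for every sample. For every sample the multiplicity of infection (virus particles per cell) is given as 366 to 500, over 6 hours. The study's methods give 366 for the GFP virus, and had virus added in medium without serum. Cre was given in culture to all cells of the dish, so no promoter limited it to a cell type. The groups therefore differed in the virus as well as in the allele, and the 2 cannot be told apart.

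Purine salvage recovers free bases and nucleosides into nucleotides, sparing the costly route of synthesis from small precursors. Polyamines (putrescine, spermidine and spermine) are positively charged metabolites made from ornithine and decarboxylated S-adenosylmethionine, and dividing cells need them. Making spermidine and spermine releases methylthioadenosine, which Mtap cleaves to adenine, and Aprt turns that adenine back into AMP, so the 2 pathways meet at Mtap.

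The libraries held between 35980831 and 42834467 estimated fragments, and each of the 10 genes passed the filter on low counts. Axin2, a direct target of β-catenin, was measured at 0.144, 0.136 and 0.177 FPKM (fragments per transcript length and sequencing depth) in Control 0, 1 and 2 and at 19.2, 14.4 and 18.7 FPKM in GOF 0, 1 and 2. The mRNA of Ctnnb1 differed by only -0.05 ± 0.15 (log2 fold change ± SE), and a gene-level count does not show the loss of exon 3. All 8 fibroblast markers were expressed, with a summed level of 3080 to 4040 FPKM in controls and 2546 to 3058 FPKM in GOF. Dcn was lower in GOF, at 0.314-fold (adjusted p = 0.00584, edgeR), and passed under all 16 alternatives, while Col1a2 and Fbn1, also lower, and Vim, higher, passed in 11, 7 and 11 of 16. Keratinocyte markers summed to at most 0.562 FPKM and adipocyte markers to at most 0.0946 FPKM in any library. Leukocyte markers summed to 9.77 to 19.9 FPKM in controls and 7.76 to 24.3 FPKM in GOF, with Cd3e at 0 fragments throughout. Within that sum, which Lyz2 led, Csf1r was 2.88-fold higher in GOF (adjusted p = 0.00186, edgeR). Endothelial markers summed to 4.32 to 4.47 and 2.68 to 6.54 FPKM, and melanocyte and Schwann cell markers to 1.24 to 4.63 and 1.22 to 4.09 FPKM. Of the endothelial markers, Kdr was 3.40-fold higher (adjusted p = 0.0110) and Tek was lower, at 0.207-fold (adjusted p = 0.0190, both edgeR). The skeletal muscle list summed to 23.3 to 27.6 FPKM in controls and 138 to 172 FPKM in GOF, nearly all of it Acta1, while Myod1 had at most 1 fragment in any library. The part of these markers in the results below was not tested. In bulk RNA, a change in the share of a cell type and a change in RNA per cell cannot be told apart.

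The promoters of the 5 genes that were higher in GOF are shown first, since genes that move together invite a look at shared letters, and with them the stretch of Sms that holds an E-box. RefSeq promoters (GRCm38.p6, the build named mm10) were matched by symbol for 9 of the 10 genes, all but Srm. Each line below gives bases upstream of a RefSeq gene start, 5′ to 3′ on the gene's strand. For Mtap and Odc1 the gene start in the GENCODE annotation lies further upstream. The Mtap line therefore falls inside the gene as annotated there, as does part of the Odc1 line. Capitals mark a GC box (GGGCGG or its complement CCGCCC), the run of overlapping TATA boxes (TATATAA, read on either strand) in Amd1, and the E-box (CACGTG) in Sms.
Hprt (chrX:52987958-52988077, plus strand): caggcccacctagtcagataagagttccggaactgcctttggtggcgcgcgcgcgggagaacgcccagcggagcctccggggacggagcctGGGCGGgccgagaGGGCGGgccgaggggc
Mtap (chr4:89137250-89137369, plus strand): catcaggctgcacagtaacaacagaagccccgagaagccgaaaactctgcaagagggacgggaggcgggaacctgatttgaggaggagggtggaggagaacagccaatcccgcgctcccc
Odc1 (chr12:17544753-17544872, plus strand): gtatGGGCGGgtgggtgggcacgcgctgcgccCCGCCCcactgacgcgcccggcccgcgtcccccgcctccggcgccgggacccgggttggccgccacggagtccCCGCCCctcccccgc
Amd1 (chr10:40302189-40302308, minus strand): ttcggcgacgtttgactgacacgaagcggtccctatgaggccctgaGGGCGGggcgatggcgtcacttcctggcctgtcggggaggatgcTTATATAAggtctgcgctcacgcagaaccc
Sat1 (chrX:155216450-155216569, minus strand): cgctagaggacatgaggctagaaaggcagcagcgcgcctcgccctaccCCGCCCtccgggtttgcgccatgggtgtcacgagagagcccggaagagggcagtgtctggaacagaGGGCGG
Sms (chrX:157492441-157492520, minus strand): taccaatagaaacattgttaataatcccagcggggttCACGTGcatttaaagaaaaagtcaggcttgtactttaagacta
GC boxes were frequent in these promoters. In the full 300-base windows, which run from 250 bases before to 50 bases after the start, Odc1 held 4, Hprt 3, Sat1 2 and Amd1 1, and Mtap held none. The GC box occurred in 8 of the 10 promoters of these 9 genes (Sms has 2) and in 35.7% of all 32851 promoters. The promoter of Amd1 alone of the 10 held a TATA box, which 3.24% of all promoters hold. These 2 motifs were chosen after the sequences were seen. Sms alone held an E-box, the site read by Myc and related factors, 196 bases before 1 of its 2 starts, and 7.15% of all promoters hold one. None held CTTTGAT, a site of the TCF/LEF factors through which β-catenin acts, on either strand, as against 3.73% of all promoters, which says only that these letters are not in these windows. The GC content of the 300 bases was 78.0% for Odc1 and 57.0% for Mtap, and the median over all promoters was 52.7%.

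In 5 genes, which span both pathways, the lowest GOF library was above the highest control. Sat1 was 3.10-fold, Mtap 2.62-fold, Hprt 2.58-fold, Odc1 1.78-fold and Amd1 1.75-fold higher. Aprt, the Pnp locus, Ada and Sms overlapped between the groups, and for Srm the highest GOF library was below the lowest control. As a description of where they fall in the fit over all genes, not as a test of them, 5 of the 10 were past an adjusted p of 0.05 in edgeR as higher, against 11.1% of all 15462 genes tested, and 0 as lower, against 10.2%. Sat1, Mtap and Hprt, 3 of the 10, also exceeded a 2-fold change, against 6.69% of all genes. Ranges of FPKM did not overlap and lay higher in GOF for 5 of the 10, against 20.3% of all genes, and lay lower for 1, against 19.2%. Since the genes were chosen on this contrast, nothing is read from these shares. The median log2 fold change over the 10 genes was 0.60, and over all genes tested it was -0.02.

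**Figure D1:**
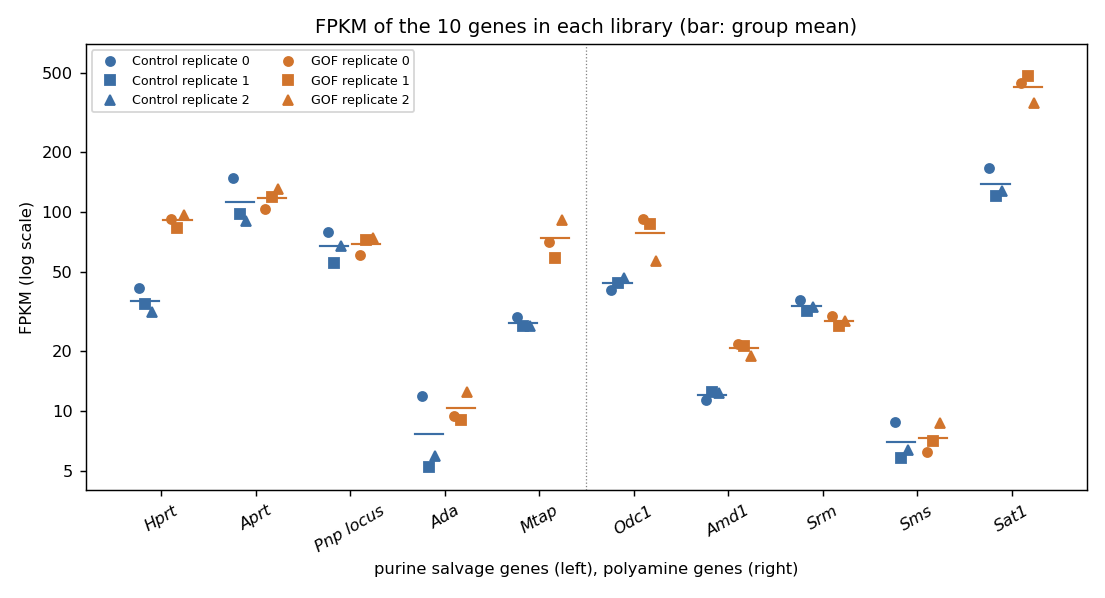
FPKM (vertical, log scale) of the 10 genes (horizontal) in each of the 3 Control (blue) and 3 GOF (orange) libraries, with a bar at each group mean. Hprt, Mtap, Odc1, Amd1 and Sat1 separate upward in GOF, Srm separates downward, and the other 4 genes overlap.

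Among the salvage enzymes, Hprt and Mtap stood about equally high in GOF while Aprt and the Pnp locus did not move with them. Hprt, on the X chromosome, encodes hypoxanthine-guanine phosphoribosyltransferase, which returns hypoxanthine and guanine to IMP and GMP. Hprt was at 41.5, 34.5 and 31.4 FPKM in Control 0, 1 and 2 and at 92.6, 83.6 and 96.2 FPKM in GOF 0, 1 and 2. The lowest GOF library was about 2 times the highest control. Its log2 fold change was 1.36 ± 0.14 (SE, n = 3 per group), with a 95% interval from 1.04 to 1.69.

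Aprt, the adenine phosphoribosyltransferase that carries out the same reaction on adenine, was at 147.7, 98.4 and 90.7 FPKM in the controls and at 103.5, 119.0 and 131.4 FPKM in GOF. The groups overlapped fully, with a log2 fold change of 0.02 and a 95% interval from -0.51 to 0.55, which leaves room for a change in either direction. Aprt was the only one of the 10 genes whose fragments were not whole numbers. It lies within the span of Gm20388 on the opposite strand, for which the table gives 3629.8 fragments in Control 0, 4340.4 in GOF 2, 18.9 in GOF 0 and 0 in the other 3 libraries. Control 0 and GOF 2 come from the same animal and are the 2 libraries highest in Aprt. Whether reads were divided between these 2 genes was not tested, and the Aprt values are uncertain to that extent.

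The ratio of Hprt to Aprt, both given per length, was 0.281, 0.350 and 0.346 in the controls and 0.895, 0.702 and 0.732 in GOF. Hprt was thus well below Aprt in each control and closer to it in each GOF library, and the uncertainty of Aprt carries over to this ratio.

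Purine nucleoside phosphorylase (Pnp) splits inosine and guanosine into base and sugar phosphate, giving Hprt its substrates. The table lists the identifier that later GENCODE annotation assigns to a read-through gene, Gm49342, which spans Pnp and reaches Pnp2, so the values below are those of the locus (chr14:50944517-50963136) and their assignment to Pnp is uncertain. The locus was at 79.9, 55.7 and 67.4 FPKM in the controls and at 61.2, 72.3 and 74.0 FPKM in GOF, with a log2 fold change of 0.02 and a 95% interval from -0.34 to 0.39. The neighbouring paralog Pnp2 was lower in level, at 4.72, 2.52 and 3.35 FPKM in controls and 4.92, 7.14 and 5.94 FPKM in GOF, and missed the threshold (log2 fold change 0.75 ± 0.27, adjusted p = 0.0856, edgeR). Without Control 0, Pnp2 passed, at 1.02.

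Adenosine deaminase (Ada), which turns adenosine into inosine, was the least expressed of the salvage genes. It was at 11.9, 5.23 and 5.94 FPKM in the controls and at 9.47, 9.04 and 12.5 FPKM in GOF. Control 0 lay inside the GOF range and the other 2 controls lay below it. The log2 fold change was 0.40, with a 95% interval from -0.35 to 1.15, and without Control 0 it was 0.87.

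Mtap, on chromosome 4, encodes methylthioadenosine phosphorylase, the step that joins polyamine synthesis to adenine salvage. Mtap was at 29.9, 26.7 and 26.7 FPKM in the controls and at 70.9, 58.9 and 91.5 FPKM in GOF. The controls lay within 4 FPKM of each other and every GOF library was far above them, although the GOF libraries were spread more widely. The log2 fold change was 1.39 ± 0.14 (SE, n = 3 per group), with a 95% interval from 1.06 to 1.72. The antisense pseudogene Gm12607 inside Mtap had at most 9 fragments in any library, beside at least 3325 for Mtap.

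On the polyamine side, the genes that bound the pathway were higher in GOF and the 2 synthases between them were not. Odc1 encodes ornithine decarboxylase, which makes putrescine and commits ornithine to the pathway. It was at 40.5, 44.2 and 46.9 FPKM in the controls and at 92.3, 86.7 and 57.1 FPKM in GOF. GOF 2 lay between the controls and the other 2 GOF libraries, nearer to the controls. The log2 fold change was 0.83 ± 0.19 (SE, n = 3 per group), with a 95% interval from 0.38 to 1.28, and it ranged from 0.71 to 1.03 when each library was left out.

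Amd1 encodes S-adenosylmethionine decarboxylase, which supplies the aminopropyl donor for spermidine and spermine. It was at 11.4, 12.4 and 12.3 FPKM in the controls and at 21.8, 21.3 and 19.0 FPKM in GOF. Both groups were tight, and the log2 fold change was 0.80 ± 0.13 (SE, n = 3 per group), with a 95% interval from 0.49 to 1.12. The related pseudogene Amd-ps3 had at most 22 fragments in any library and the near copy Amd2 at most 17, few beside the 1501 to 3371 of Amd1. Amd2 had 12, 4 and 5 fragments in the controls and 17, 12 and 17 in GOF. Its log2 fold change was 1.04 ± 0.51 (adjusted p = 0.199, edgeR), and 1.76 without Control 0. It passed the filter on low counts mainly through GOF, so nothing is read from its adjusted p under any setting. Odc1 and Amd1, both known for fast turnover of their proteins, stood in a ratio of 3.56, 3.55 and 3.81 in the controls and 4.24, 4.06 and 3.002 in GOF, which overlap.

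Spermidine synthase (Srm) adds the first aminopropyl group, to putrescine. Srm was at 36.0, 31.9 and 33.4 FPKM in the controls and at 30.1, 26.8 and 28.2 FPKM in GOF. All GOF libraries were below all controls, but the difference was small (log2 fold change -0.27 ± 0.12, 95% interval from -0.56 to 0.01). The ratio of Odc1 to Srm was 1.13, 1.38 and 1.40 in the controls and 3.07, 3.24 and 2.02 in GOF.

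Spermine synthase (Sms), which adds the second aminopropyl group and lies on the X chromosome, had the lowest level of the 10 genes on average in both groups. It was at 8.83, 5.83 and 6.40 FPKM in the controls and at 6.26, 7.07 and 8.74 FPKM in GOF, which overlap. Its log2 fold change was 0.14, with a 95% interval from -0.28 to 0.57.

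Sat1, also X-linked, encodes spermidine/spermine acetyltransferase, which marks polyamines for export or oxidation and so drives their breakdown. Sat1 was at 167, 120 and 128 FPKM in the controls and at 445, 483 and 354 FPKM in GOF, the highest level of the 10 genes in every library. The lowest GOF library was more than 2 times the highest control. The log2 fold change was 1.63 ± 0.21 (SE, n = 3 per group), with a 95% interval from 1.15 to 2.11.

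The gene for breakdown and the gene that commits ornithine were thus both higher, but Sat1 more so. The ratio of Sat1 to Odc1 was 4.12, 2.71 and 2.73 in the controls and 4.82, 5.57 and 6.21 in GOF. The ratio of Sat1 to Sms was 18.9, 20.6 and 20.03 in the controls and 71.2, 68.3 and 40.6 in GOF, a separation with no overlap.

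Ordered by mean FPKM, the controls ran Sat1, Aprt, Pnp locus, Odc1, Hprt, Srm, Mtap, Amd1, Ada and Sms, and GOF ran Sat1, Aprt, Hprt, Odc1, Mtap, Pnp locus, Srm, Amd1, Ada and Sms. Hprt moved from rank 5 to rank 3 and Mtap from rank 7 to rank 5. In the controls the ranges of Sat1 and Aprt, Odc1 and Hprt, Hprt and Srm, Amd1 and Ada, and Ada and Sms overlapped. In GOF only the neighbours Hprt and Odc1, Odc1 and Mtap, and Mtap and the Pnp locus overlapped, so Sat1 stood clear of Aprt, at a mean of 428 against 118 FPKM.

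Some libraries stood at the same end of the range for many of the genes. In FPKM, Control 0 was the highest control for 8 of the 10 genes (all but Odc1 and Amd1). By the same measure GOF 2, from the same animal, was the highest GOF library for 6, namely Hprt, Aprt, Pnp locus, Ada, Mtap and Sms. GOF 2 was also the lowest GOF library for Odc1, Amd1 and Sat1. Over all genes, FPKM summed highest among the controls in Control 0, at 716361 against 525924 in Control 1 and 518131 in Control 2. Among the GOF libraries it summed highest in GOF 2, at 594842 against 527793 in GOF 0 and 508938 in GOF 1. The order can depend on the measure: in fragments, Hprt was highest in GOF 0, at 5388 against 4896 in GOF 1 and 5029 in GOF 2. The part of these sums in the order of the libraries was not tested. Compared within the 2 animals that gave a culture to each group, 6 genes were higher in GOF in both, namely Hprt, Ada, Mtap, Odc1, Amd1 and Sat1. The share of all genes higher in both animals was not computed. The 10 genes were chosen on these same libraries, so nothing is read from the count of 6. Srm was at 0.901-fold and 0.784-fold and the Pnp locus at 0.908-fold and 0.927-fold in GOF 0 and GOF 2, each against the control of its own animal. Sms was close to even, at 0.978-fold and 0.990-fold, and its log2 fold change with the animal as a block was 0.0037. Here and below, the animal block draws its difference from these 2 animals, and Control 1 and GOF 1 do not enter it. Aprt went opposite ways, at 1.14-fold and 0.890-fold. In the animal of Control 2 and GOF 0, Sat1 was 3.47-fold and Odc1 1.97-fold higher, and in the animal of Control 0 and GOF 2 they were 2.12-fold and 1.41-fold higher. Mtap was 2.65-fold and 3.06-fold higher, and Hprt 2.95-fold and 2.32-fold.

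**Figure D2:**
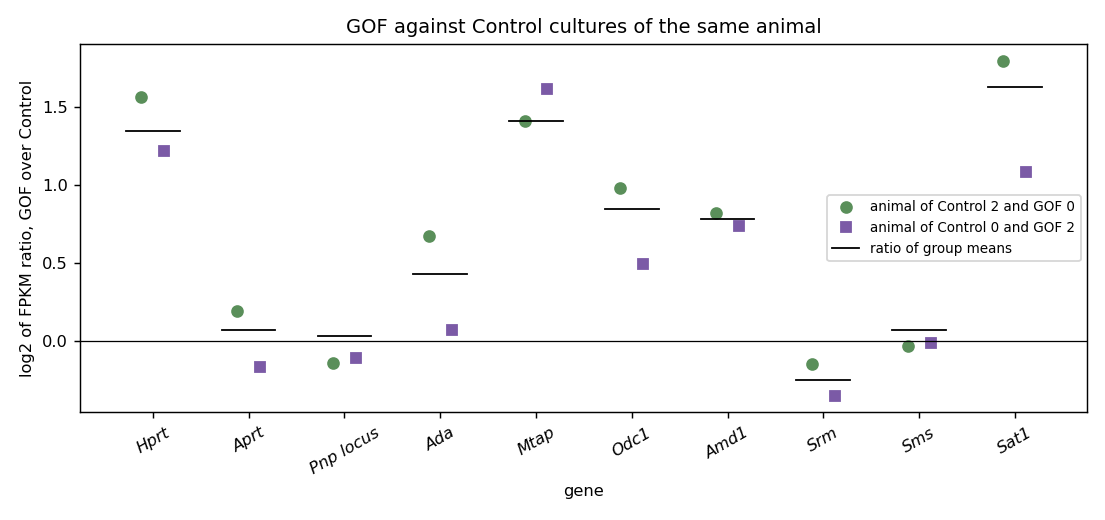
Log2 of the FPKM ratio of GOF to Control (vertical) for each of the 10 genes (horizontal) within the animal of Control 2 and GOF 0 (green circles) and the animal of Control 0 and GOF 2 (purple squares), with a bar at the ratio of the group means. Hprt, Mtap, Odc1, Amd1 and Sat1 are above 0 in both animals, and Odc1 and Sat1 differ most between the animals among these.

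Of the 10 genes, Hprt, Sms and Sat1 lie on the X chromosome, so the sex of the cultures was looked at. Xist, the RNA that silences 1 X chromosome in female cells, was at 16.6 to 33.4 FPKM in controls and 19.8 to 31.2 FPKM in GOF, which overlap. The Y-linked genes Ddx3y and Eif2s3y had 0 fragments in all 6 libraries, where 3 fragments is the most that a count of 0 allows. The other Y-linked genes looked at were not at 0 but were low. Kdm5d had 12 to 24 fragments (at most 0.0596 FPKM) and Uty 9 to 45 fragments (at most 0.492 FPKM), with overlapping groups. Xist was thus present in every library, while the 4 Y-linked genes were at 0 or at most 0.492 FPKM. The sex of the cultures was not tested beyond these values, nor was the source of the Kdm5d and Uty fragments. Of the X-linked genes, Sat1 and Hprt were higher in GOF and Sms overlapped.

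Hprt was also a reference gene for RT-qPCR of Axin2 in the study's methods, so other reference genes were set beside it. Of 14 common ones, 12 could be tested and 3 (25%, beside 21.2% of all genes) passed the threshold, all higher in GOF: Ywhaz (log2 fold change 0.53 ± 0.12, adjusted p = 0.0208), Tfrc (0.72 ± 0.19, adjusted p = 0.0338) and Gusb (0.39 ± 0.11, adjusted p = 0.0445), all by edgeR. The median over the 12 was 0.22. None of the 3 passed without Control 1, Control 2, GOF 0 or GOF 1, or with the animal as a block. Rpl32, another reference used in the study, had overlapping groups at 2469, 1478 and 1722 FPKM in the controls and 1169, 1320 and 1658 FPKM in GOF (log2 fold change -0.48 ± 0.23, adjusted p = 0.176, edgeR), and with the animal as a block it alone of the 12 passed (-0.59, adjusted p = 0.0419). Actb, also used there, had a failed estimate and is listed at 0 in the 3 GOF libraries beside at least 241520 fragments in each control, so it was left out. On these RNA-seq values, the mean ratio of Axin2 to Hprt was 44.0-fold higher in GOF and the mean ratio of Axin2 to Rpl32 was 153-fold higher.

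Counts in the lists below stand beside 21.2% of all genes tested that passed in either direction, with a median log2 fold change of -0.02. Of 13 genes of de novo purine synthesis, from Prps1 to the enzymes that make AMP and GMP, 2 (15.4%) passed the threshold, both higher, and the median log2 fold change was -0.05. Impdh1, an isoform of the enzyme that leads IMP towards GMP, was at 7.52, 7.69 and 8.88 FPKM in the controls and 19.7, 13.7 and 12.9 FPKM in GOF (log2 fold change 0.90 ± 0.17, adjusted p = 0.0101, edgeR). Adssl1, the muscle form of adenylosuccinate synthase, went from 1.87, 1.80 and 2.68 FPKM to 5.40, 7.54 and 4.51 FPKM (1.42 ± 0.23, adjusted p = 0.00571, edgeR). Acta1, of the skeletal muscle list, was also higher in GOF, but the rest of that list did not go with it. Des missed the threshold (0.31 ± 0.32, adjusted p = 0.541, edgeR), and Myod1, Myog and Myh3 were too low to be tested. The part of Acta1 in the Adssl1 result was not tested. Prps1 makes the ribose donor that Hprt and Aprt both use, and its groups overlapped (0.25 ± 0.14 on the log2 scale, adjusted p = 0.248, edgeR). Impdh1 and Adssl1 passed, and no other gene of the list did, under all 16 alternatives tried.

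Of 17 other genes of purine salvage, breakdown and transport that could be tested among 23, 4 passed as higher and 1 as lower (29.4% together) and 12 did not pass, with a median log2 fold change of 0.44. Slc29a1, the equilibrative nucleoside transporter ENT1, fell from 26.5, 17.0 and 17.2 FPKM to 4.47, 6.16 and 6.33 FPKM (log2 fold change -1.92 ± 0.25, adjusted p = 0.00218, edgeR). Adenosine kinase (Adk), which phosphorylates adenosine to AMP, rose from 127, 94.2 and 106 FPKM to 178, 181 and 250.5 FPKM (0.88 ± 0.17, adjusted p = 0.0103, edgeR). Both passed under all 16 alternatives.

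The other 3 were less firm. Nt5e, the ecto-5′-nucleotidase CD73 that makes adenosine outside the cell, was at 0.560, 0.579 and 1.19 FPKM in the controls and 3.70, 5.87 and 1.49 FPKM in GOF (2.35 ± 0.55, adjusted p = 0.0223, edgeR). Slc29a2, a second equilibrative transporter, had at most 35 fragments in any library (1.23 ± 0.31, adjusted p = 0.0283). Ampd2, an AMP deaminase, rose by 0.59 ± 0.17 (adjusted p = 0.0482). Nt5e did not pass without Control 0, Control 1, GOF 0 or GOF 1, Slc29a2 without any of the 6 libraries, and Ampd2 without any but GOF 1. With the animal as a block Slc29a2 did not pass (adjusted p = 0.0636). The count of 5 was 2 without Control 1 or GOF 0 and 3 without GOF 1.

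Of 15 other polyamine genes that could be tested among 19, 2 passed as higher and 1 as lower (20% together), with a median log2 fold change of -0.03. Azin1, the antizyme inhibitor that protects ornithine decarboxylase from degradation, rose from 36.9, 35.7 and 33.4 FPKM to 48.8, 47.6 and 47.1 FPKM (log2 fold change 0.42 ± 0.11, adjusted p = 0.0333, edgeR). Atp13a3, a polyamine transporter, rose by 0.47 ± 0.12 (adjusted p = 0.0296). Eif5a2, a minor isoform of the factor that carries the spermidine-derived residue hypusine, fell by 0.44 on the log2 scale (SE 0.12, adjusted p = 0.0387). None of the 3 passed with the animal as a block (adjusted p between 0.0541 and 0.115), nor did any gene of the list without Control 1, Control 2, GOF 0 or GOF 1, and Eif5a2 did not pass without any of the 6 libraries. Oaz1, the antizyme that directs ornithine decarboxylase to the proteasome, was abundant and overlapped between groups, at 445, 301 and 303 FPKM in the controls and 339, 383 and 381 FPKM in GOF (-0.03 ± 0.19, adjusted p = 0.935, edgeR).

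In the methionine cycle and salvage, which supplies S-adenosylmethionine and recovers the product of Mtap, 2 of 12 tested genes (16.7%) passed, both higher, with a median log2 fold change of 0.17. Ahcy, which hydrolyses S-adenosylhomocysteine, was at 13.0, 15.6 and 19.5 FPKM in the controls and 23.4, 19.0 and 22.0 FPKM in GOF (log2 fold change 0.43 ± 0.11, adjusted p = 0.0344, edgeR), and the groups overlapped. Got1, an aspartate aminotransferase, rose from 24.4, 25.9 and 27.9 FPKM to 45.6, 40.6 and 33.2 FPKM (0.57 ± 0.14, adjusted p = 0.0233, edgeR). Neither passed without Control 1, Control 2, GOF 0 or GOF 1, Ahcy did not without GOF 2 either, and with the animal as a block Got1 passed and Ahcy did not (adjusted p = 0.0724).

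**Figure D3:**
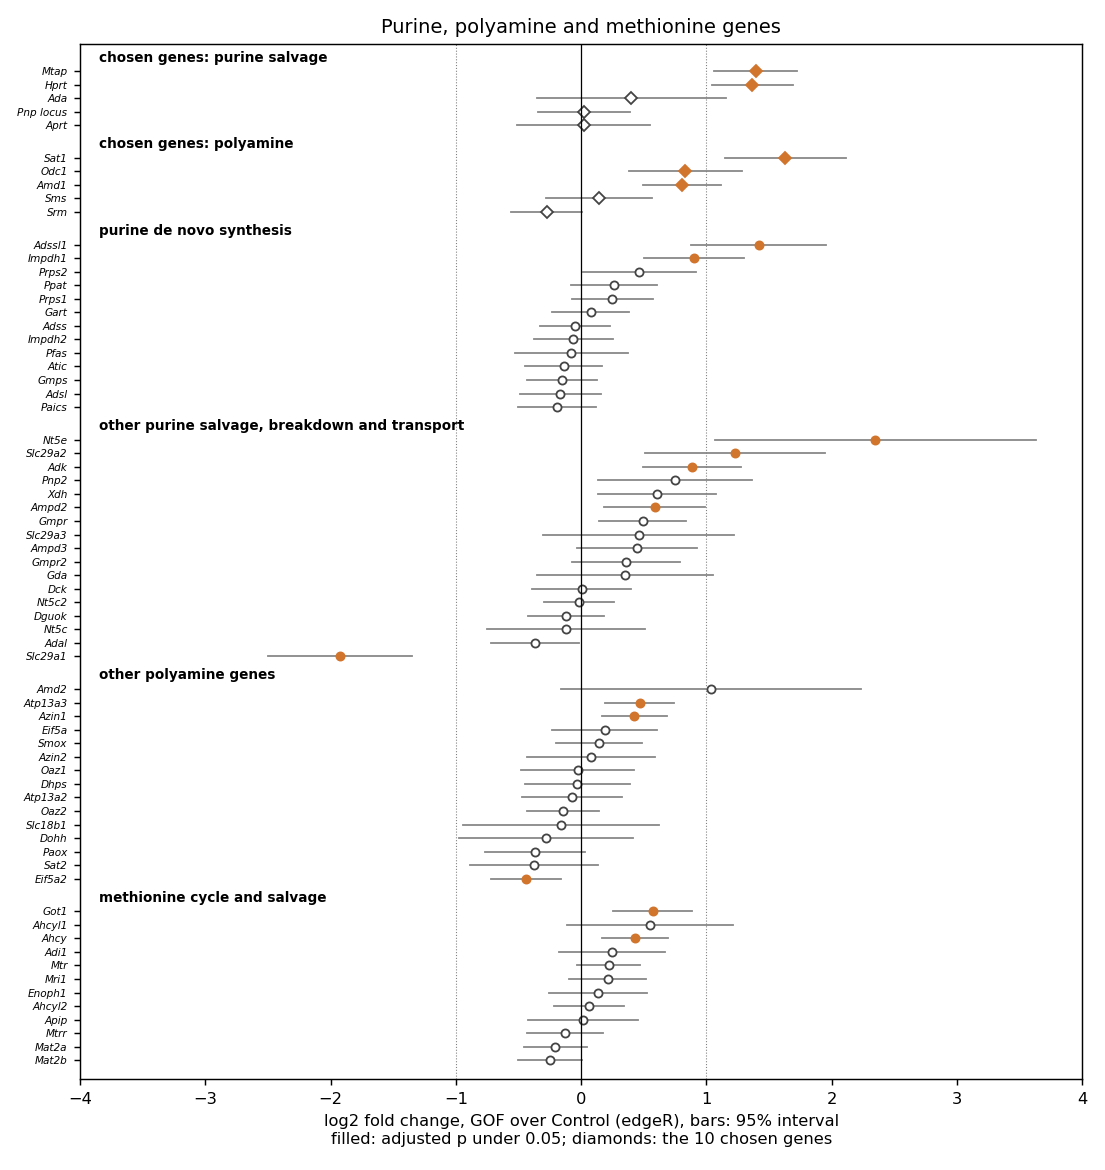
Log2 fold change of GOF over Control (horizontal, edgeR) with its 95% interval for the 10 genes (diamonds) and for the tested genes of 4 neighbouring pathways (circles), filled where the adjusted p was under 0.05. Most genes of de novo purine synthesis and of polyamine regulation sit near 0, and Slc29a1 stands apart on the lower side at -1.92.

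Mtap was set beside its neighbours on chromosome 4, since it lies next to the Cdkn2a and Cdkn2b tumour suppressor genes and is often deleted together with them in tumours. Mtap spans chr4:89137122-89181081 on the plus strand (mm10). Of 53 genes annotated within 500 kb, 12 could be tested, and 5 (41.7%) passed the threshold, all higher in GOF. Of the 5, Gm12606 and Dmrta1 passed the filter on low counts only through the GOF libraries, where they are high. Their entry among the 12 and their call are not independent, so nothing is read from this share. Wincr1 and Gm12602 lie upstream of Mtap. The long non-coding RNA Wincr1, on the same strand, rose from 1.24, 0.607 and 0.592 FPKM to 12.3, 14.9 and 14.2 FPKM (log2 fold change 4.18 ± 0.31, adjusted p = 0.000295, edgeR). Gm12602, between Wincr1 and Mtap on the opposite strand, rose by 2.60 ± 0.30 (adjusted p = 0.00142). Both passed under all 16 alternatives.

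Downstream of Mtap, Cdkn2b, an inhibitor of the cyclin-dependent kinases of G1, rose from 43.5, 27.5 and 23.1 FPKM to 115, 78.4 and 194 FPKM (2.01 ± 0.39, adjusted p = 0.0105, edgeR). Cdkn2a, which encodes p16 and p19ARF, was at 56.3, 44.7 and 35.8 FPKM in the controls and 125, 56.6 and 197 FPKM in GOF. GOF 1 of Cdkn2a barely exceeded Control 0, and the gene missed the threshold (1.496 ± 0.48, adjusted p = 0.0627, edgeR). It passed without GOF 1 (1.88) and with the animal as a block (1.87, adjusted p = 0.000449, edgeR). The block does not draw on GOF 1 either, so these alternatives are not separate evidence. In Cdkn2a, Cdkn2b and Mtap alike, GOF 2 was the highest library and GOF 1 the lowest of the GOF libraries. Gm12606 and Dmrta1 nearby had this order too. Hprt and Ada on other chromosomes had it in FPKM, which summed highest in GOF 2. In fragments, however, Hprt was highest in GOF 0, at 5388, 4896 and 5029 in GOF 0, 1 and 2. Wincr1 was highest in GOF 1 and Gm12602 in GOF 0, so the order was not shared by the whole locus. Whether it was particular to the locus was not tested.

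Gm12606, which the paper names Wincr2, rose by 3.27 ± 0.58 (adjusted p = 0.00788, edgeR) from at most 7 fragments in a control to between 27 and 65 in GOF. Dmrta1 had 0 fragments in all controls and 37, 17 and 109 fragments in GOF (adjusted p = 0.0129, edgeR). The GOF mean, led by GOF 2, was at least 16.7-fold higher against a floor of 3 fragments per library. That bound is not one for each library. Since Gm12606 and Dmrta1 passed the filter only through GOF, nothing is read from their adjusted p. The tested genes more than 300 kb upstream, namely Klhl9, Gm26566, Gm13283, Ifnz, Gm26525 and Gm26867, had log2 fold changes between -0.80 and 0.49 and none passed. Gm26566 (-0.80 ± 0.27, adjusted p = 0.0739, edgeR) passed as lower in 5 of 16 alternatives, namely DESeq2, limma at both pseudocounts, limma-voom and without GOF 2 (-1.07). Whether the values of Mtap and its neighbours depend on each other was not tested here. The paper, which overexpressed and knocked down Wincr1 in such fibroblasts, reports that Mtap mRNA did not follow the Wincr1 level.

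**Figure D4:**
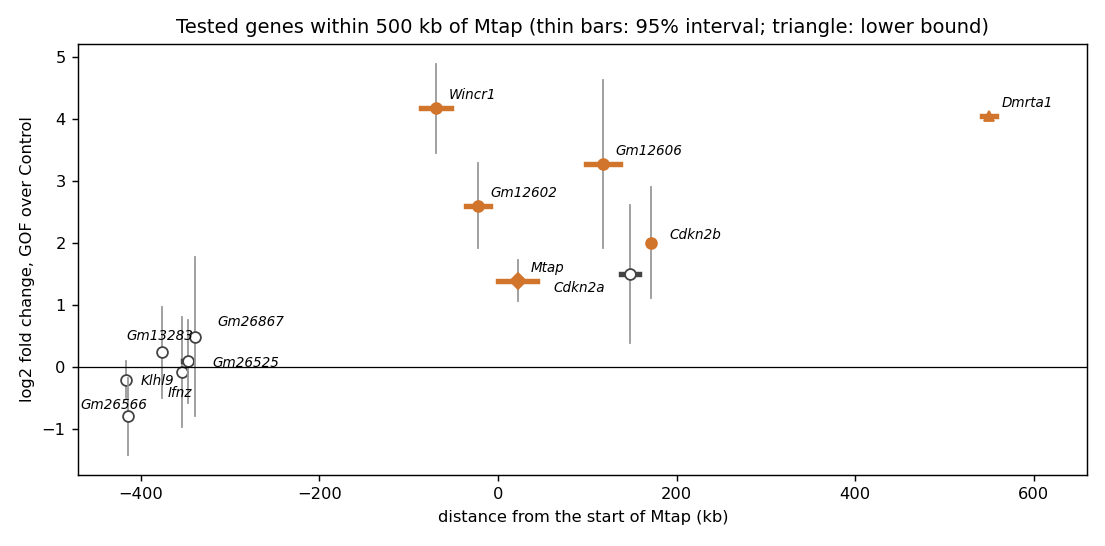
Log2 fold change of GOF over Control (vertical) of Mtap (diamond) and the 12 tested genes around it (circles) against distance from the start of Mtap in kb (horizontal), with thick lines for gene spans, thin lines for 95% intervals and a triangle for the lower bound of Dmrta1. Filled symbols passed an adjusted p of 0.05. Genes from Wincr1 to Dmrta1 are above 0, and the group of genes on the far left is around 0.

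The genes whose profile over the 6 libraries was most like those of Sat1 and Srm, the members with the highest and lowest fold change, were found by Pearson's r of log2(FPKM + 1) over 12241 genes. For Sat1 they were Rcan1 (r = 0.9980), Aqp5 (r = 0.9978) and Ugdh (r = 0.9976). For Srm they were Snhg17 (r = 0.9909), Erf (r = 0.9902) and Nck1 (r = 0.9879). The 6 points share their libraries and fall into 2 groups, so a high r needs little more than a like difference between the groups. In these libraries 3.26% of the genes had r over 0.95 with Sat1, and 0.572% with Srm.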

How the data were processed

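Per the labels and the study's methods, libraries from a stranded Illumina kit were aligned with TopHat to mm10 and quantified with Cuffdiff. The strand setting used in counting is not given in the sources used here. The authors deposited estimated counts of fragments, not normalised, and FPKM per gene and library, and 4.95% of the estimated fragments were not whole. Here, fragments were rounded and 32 genes with a failed estimate were left out. The groups were compared with edgeR 4.0.16 (TMM, filterByExpr, quasi-likelihood test, R 4.3.3), with Benjamini-Hochberg adjustment over 15462 genes. The procedure was tested on simulated data. Two-sided thresholds were an adjusted p of 0.05 and a 2-fold change. Intervals are 95%.

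The 10 genes and the pathway lists were chosen with earlier results of these data known. Named besides them are list genes past the threshold (at most 5 a list), partner genes, all tested Mtap neighbours, Actb, Rpl32, Xist and the 3 genes most like 2 members. Gene IDs were matched to GENCODE M21 (97.9%). Alternatives used DESeq2 1.42.0, limma 3.58.1 on log2(FPKM + 1) and log2(FPKM + 0.1), other scalings and filters, and blocks. Cultures of the same animal deviated together (r = 0.408 and 0.46). With 2 shared animals among 4, the p-values partly measure spread between cultures. The authors' own comparison columns were left aside, as were 2 further columns with a value per library.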

Additional observations from a re-analysis of the deposited data

How the results depend on the processing

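Of the 10 genes, 5 passed an adjusted p of 0.05 in the fit reported. Under 16 alternatives the count was 4 or 5, and the same 5 genes passed with DESeq2, the other scalings, the other filters, limma on FPKM at both pseudocounts, the animal block and limma-voom with cultures of the same animal correlated. Comparing each gene's fold change under each alternative, 153 values kept their direction and side of the threshold, 6 were weaker (all Odc1, without any library but GOF 2 and with the block by label number) and 1 was stronger (Ada, without Control 0). The 10 genes were chosen on this contrast, so these calls support nothing about them. None reversed. The count past a 2-fold change was 3, and 3 to 4 when 1 library was left out.

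Counts in the other lists moved more, and the causes were not tested. Other purine genes (5) gave 8 with DESeq2, 9 with limma-voom, 2 with the block by label number and 2 to 4 when 1 library was left out. Other polyamine genes (3) gave 1 with no filter on low counts, 0 with the block by label number, 0 with the animal block and 0 to 4 when 1 library was left out. Methionine genes (2) gave 1 with upper-quartile scaling, with no filter, with limma at either pseudocount and with the animal block, 0 with the block by label number and 0 to 2 when 1 library was left out. The qPCR reference genes (3) gave 0 with the block by label number, 1 with the animal block and 0 to 4 when 1 library was left out. Mtap neighbours (5) gave 3 with a minimum of 1 FPKM in 3 libraries and 5 to 7 when 1 library was left out. De novo purine genes gave 2 throughout.

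The replicate numbers do not mark shared animals: same-numbered libraries deviated with r = -0.41, 0.054 and -0.441, and the replicate block by number removed Odc1 from the 5 genes. Under the other scalings the median of all genes dropped by at most 0.054 on the log2 scale. Each of the 10 genes had at least 465 fragments in every library.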
